A study of Mus musculus with 4 samples.

Results

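The 40 genes described here are 8 immunity-related GTPases and 32 genes induced by type I interferon. They were chosen by name, from known induction by interferon, with the differences between viruses on these same arrays in view, so every difference between viruses is given for them as a description and none is tested. By the gene name on the array, 39 of the 40 had a probe, 48 probes of 39429 in all. Of these, 45 probes of 38 genes were bright enough to be compared, out of 23721 probes of 18995 genes on the whole array, and 46 were well above background on all 4 arrays. The 38 genes comprised all 8 GTPases and 30 of the 32 type I interferon genes. The pair missing was Ifi27, which no probe carried by name, and Trim25, the ubiquitin ligase that acts with the RNA sensor Ddx58, whose probe had a spot rejected as an outlier. The Trim25 probe read 5.54 and 5.61 with EMPTY and 5.67 and 5.77 with Mir195, in log2 units relative to the 75th percentile of each array.

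Lin- hematopoietic progenitors from the fetal liver of Ebf1-/- mice, which lack the factor that commits cells to the B lineage, were infected with a control retrovirus (EMPTY) or with one that also carries the microRNA gene Mir195. Both viruses share the MDH1-PGK-GFP backbone, and all cells were cultured on OP9 stroma cells with SCF, IL-7 and Flt3-ligand at 10 ng/mL each. RNA of 2 EMPTY and 2 Mir195 samples, about 100 ng each, was hybridised with a single dye to Agilent mouse arrays on 1 slide, the EMPTY samples in the first positions and the Mir195 samples in the last, so that position and virus cannot be told apart. No interferon was among the additions named. Nothing in the labels says that replicates came from separate cultures or animals, so a standard error may measure technical spread only. Each array had 23666 to 24689 probes well above background and none saturated. Ebf1 read 2.0, 1.88, 1.85 and 2.02, and whether its probe lies in the disrupted part of the gene is not given in the sources used here. In RNA of mixed cells, fewer cells of a type and less RNA per cell cannot be told apart.

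Type I interferons signal through the receptor chains Ifnar1 and Ifnar2 and the kinases Jak1 and Tyk2 to a complex that includes Stat2 and Irf9 and binds the interferon-stimulated response element (ISRE) of antiviral genes. Interferon gamma signals through Ifngr1 and Ifngr2 to the gamma-activated site (GAS) of its target genes, and it is the main inducer of the immunity-related GTPases (IRG) and guanylate-binding proteins (GBP) that attack the vacuoles of intracellular pathogens. Many genes respond to both. Plasmacytoid dendritic cells and macrophages are known as strong sources and responders, and NK cells as a source of interferon gamma.

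The genes were readily detected in cells of either virus. The brightest compared probe was above the 75th percentile of its array on all 4 arrays for 36 of the 38 genes, 94.7%, where 42.4% of all compared genes were. This held for 30 of 30 type I interferon genes and for 6 of 8 GTPases, with Iigp1 and F830016B08Rik below it on all 4 arrays. Because probes differ in brightness for the same amount of RNA, levels of different genes were not set against each other.

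None of the 45 member probes passed an adjusted p of 0.05 by limma with the Benjamini-Hochberg adjustment, against 0% of all compared probes. At an unadjusted p under 0.05 there were 4 higher with Mir195 (background 6.32%) and 0 lower (background 2.06%). In 11 of the 38 genes the Mir195 arrays were both above the EMPTY arrays, where 23.3% of all compared genes did. In 7 genes both lay below, where 14.3% of all compared genes did, and in 20 the arrays overlapped. As the genes were selected on this contrast, nothing is read from these counts. The 11 on the higher side were F830016B08Rik, Oas2, Oas3, Oasl1, Oasl2, Mx1, Mx2, Ifi44, Irf7, Irf9 and Stat2. The 7 on the lower side were Igtp, Irgm2, Psmb8, Psmb9, Rtp4, Xaf1 and Ifih1.

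**Figure D1:**
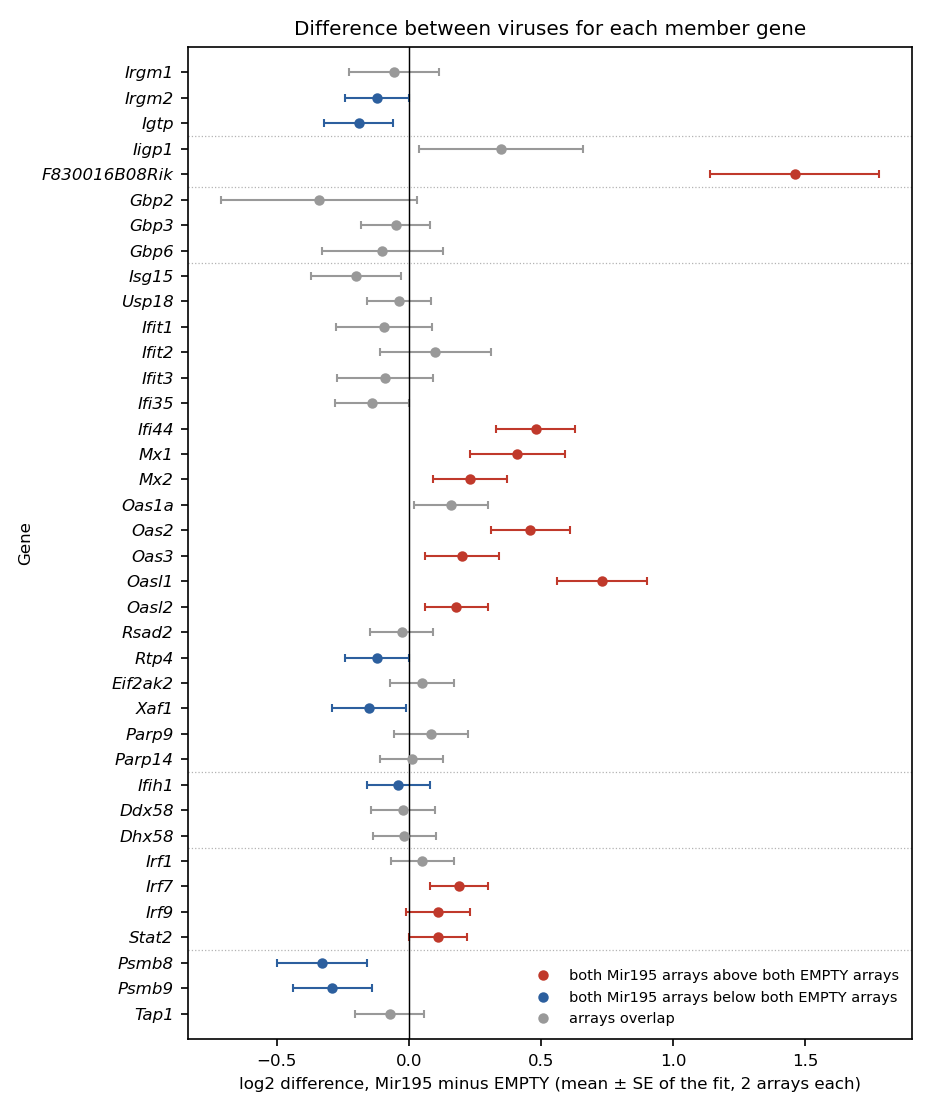
Difference between Mir195 and EMPTY arrays (x axis, log2) for each of the 38 member genes (y axis, grouped by role with dotted lines), with the standard error of the fit as bars and 2 arrays per virus. Red marks the 11 genes with both Mir195 arrays above the EMPTY arrays, blue the 7 with both below and grey the 20 that overlap; F830016B08Rik stands at 1.46 and Oasl1 at 0.73.

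Among the GTPases, the GMS class is the regulatory branch of the IRG family, which holds the effector GTPases inactive on the membranes of the cell itself. Igtp, also known as Irgm3, read 4.63 and 4.41 with EMPTY and 4.32 and 4.36 with Mir195. Irgm2 read 3.32 and 3.19 with EMPTY and 3.13 and 3.14 with Mir195. Both were lower with Mir195 without overlap, by a log2 difference of -0.19 ± 0.13 (SE) for Igtp and -0.12 ± 0.12 for Irgm2, and each kept that sign under all 12 alternatives of processing. Where arrays do not overlap, leaving out an array cannot turn the sign. In Igtp the single EMPTY arrays lay 0.22 apart, more than the difference between the means of the viruses. Irgm1, the member required for control of mycobacteria in mice, read 4.17 and 3.86 with EMPTY and 3.83 and 4.09 with Mir195, so that its arrays overlapped. Its difference was -0.055 ± 0.17 on the brighter probe and 0.16 ± 0.26 on the other, which read 2.20, 1.67, 1.85 and 2.33, and the sign also turned without EMPTY replicate 1, without Mir195 replicate 1 and in the mean of both probes.

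The effector IRG proteins load onto vacuoles that hold parasites such as Toxoplasma. F830016B08Rik, a gene of this effector family listed in RefSeq also as Ifgga4, read -2.82 and -2.90 with EMPTY and -1.86 and -0.93 with Mir195. It was higher with Mir195 on both arrays, by 1.46 ± 0.32 on the log2 scale or 2.75-fold, which is the widest difference among the 38 genes. The Mir195 arrays differed from each other by 0.93, and over the alternatives the difference ranged from 1.0 to 1.93. Its adjacent coding gene Iigp1 (Irga6), the best studied effector of the family, read -0.55 and -1.08 with EMPTY and -0.82 and -0.11 with Mir195. These arrays overlapped, with a difference of 0.35 ± 0.31 whose sign turned without Mir195 replicate 2. A further Iigp1 probe, left out for an outlier spot, read 0.56, 0.13, 0.24 and -0.52, so that its order of the Mir195 arrays was the opposite.

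Guanylate-binding proteins are large GTPases that assemble on vacuoles and bacteria and help to open them. Gbp2 read 1.85 and 1.01 with EMPTY and 0.73 and 1.44 with Mir195, for a difference of -0.34 ± 0.37. Its replicates thus lay 0.84 apart with EMPTY and 0.71 apart with Mir195, and without EMPTY replicate 1 or Mir195 replicate 1 the sign turned. Gbp3 read 1.40 and 1.22 with EMPTY and 1.23 and 1.29 with Mir195, a difference of -0.05 ± 0.13 that turned without EMPTY replicate 1. The compared probe named Gbp6 carries an accession that RefSeq gives to Gbp7, so which gene of the family it reads is uncertain. It read 0.74, 0.18, 0.23 and 0.49, with overlap, a difference of -0.10 ± 0.23 and a sign that turned without EMPTY replicate 1 or Mir195 replicate 1. On no array was the other probe named Gbp6 well above background.

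Single arrays of 1 virus lay at least as far apart, by the median, as the means of the viruses did. A mean of 2 arrays varies less than a single array. The difference between viruses would therefore be the smaller of the 2 measures even with no effect of virus. Over all compared genes, the median size of the difference between viruses was 0.12, beside 0.15 between the EMPTY arrays and 0.20 between the Mir195 arrays. Over all compared probes, EMPTY replicate 2 and Mir195 replicate 1 lay a median of 0.0953 apart, closer than the replicates of either virus. For the GTPases, the median size of the difference between viruses was 0.15, beside 0.26 between the EMPTY arrays and 0.26 between the Mir195 arrays, with F830016B08Rik the exception at 1.46 by virus. For the type I interferon genes these were 0.11, 0.11 and 0.15. EMPTY replicate 1 was above EMPTY replicate 2, and Mir195 replicate 2 above Mir195 replicate 1, in 8 of 8 GTPases. Of all compared genes, 35.7% had the first order, 46.5% the second and 23.1% both. Both orders held in 7 of the 8 GTPases in the authors' table and in 5 with scaling by the median, where 23% and 18.2% of all compared genes had both. Of the 30 type I interferon genes, 13 had the first, 17 the second and 11 both, among them the 3 Ifit genes, and with quantile normalization 18 of the 30 had both, where 27.4% of all compared genes did. After each gene was centred on its own mean, the median of the GTPases came to 0.15 and -0.18 with EMPTY and -0.14 and 0.092 with Mir195. That of the type I interferon genes was -0.0077 and -0.035 with EMPTY and 0.028 and 0.06 with Mir195. Across the 38 genes the spread of the EMPTY arrays and that of the Mir195 arrays had a Pearson r of 0.522, and across all 18995 genes 0.0866. Genes on the same 4 arrays are not independent, and r is given as a description.

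**Figure D2:**
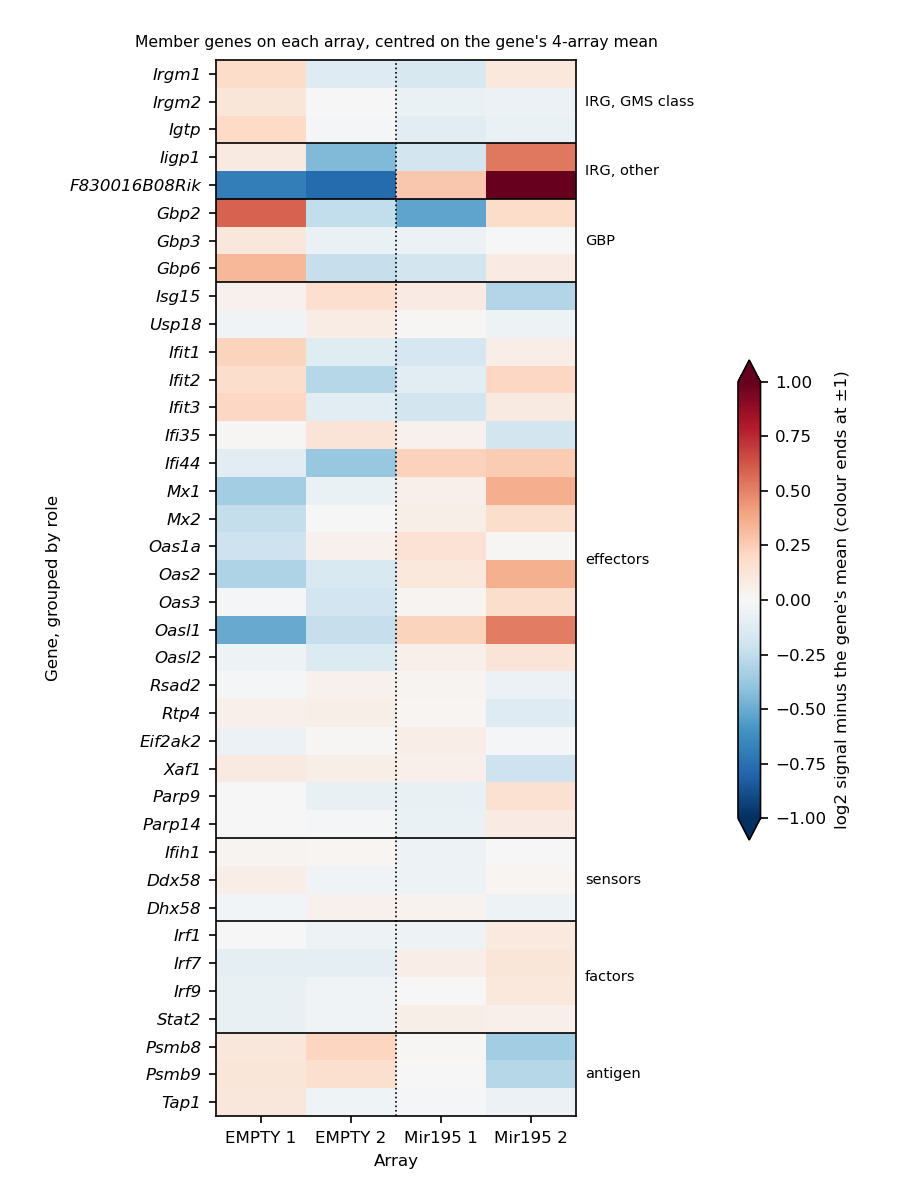
Log2 signal of the 38 member genes (rows, grouped by role) on the 4 arrays (columns), each minus the mean of the gene over the 4 arrays; red is above and blue below that mean, and colours end at 1 and -1. Most GTPase rows at the top are red on EMPTY 1 and white or blue on EMPTY 2 and Mir195 1, while Mx1, Oas2 and Oasl1 change colour between the viruses and Psmb8 and Psmb9 are bluest on Mir195 2.

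The same order was seen in most GTPases of these families that were not among the members. Of 16 with a compared probe, 14 had EMPTY replicate 1 above 2 and Mir195 replicate 2 above 1, where 23.1% of all compared genes did. They include Gbp4 (1.29, 0.90, 0.69 and 1.17), Gbp9 (-0.60, -1.21, -1.25 and -0.52) and Tgtp1 (-0.43, -0.73, -0.68 and -0.26). For these 16 the order was not checked under the other scalings. Ifng, which encodes interferon gamma, read 0.24 and -0.68 with EMPTY and -0.91 and -0.33 with Mir195. Its target Cxcl10, a chemokine for T and NK cells, read 1.44 and 0.70 with EMPTY and 0.32 and 1.02 with Mir195. These genes were picked after their values were seen, and in both the replicates of each virus stood in the order of the GTPases. Of 11 NK and T cell markers, all well above background on the 4 arrays, 5 had this order, namely Ncr1, Klrb1c, Gzmb, Eomes and Tbx21. Prf1, the perforin of NK and cytotoxic T cells, did not, at -1.29, -1.37, -1.37 and -1.56, nor did the T cell genes of the list. Ncr1 read -1.76, -3.05, -2.96 and -2.40. The order was not particular to this list, and 23.1% of all compared genes had it. It held in 5 of 8 dendritic cell, 5 of 12 macrophage and monocyte and 6 of 14 OP9 stroma markers. Of 8 plasmacytoid dendritic cell markers, 2 had it. Not all of these markers were well above background. The summed signal of the 11 NK and T cell markers, in multiples of each array's 75th percentile, was 45.0 and 47.9 with EMPTY and 45.3 and 43.5 with Mir195. Most of each sum was Lck, by far the brightest of the list, at 5.18, 5.42, 5.31 and 5.23. The sum therefore says little of the other markers. Whether the cells that express any of these markers have a part in the order of the GTPases was not tested.

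**Figure D3:**
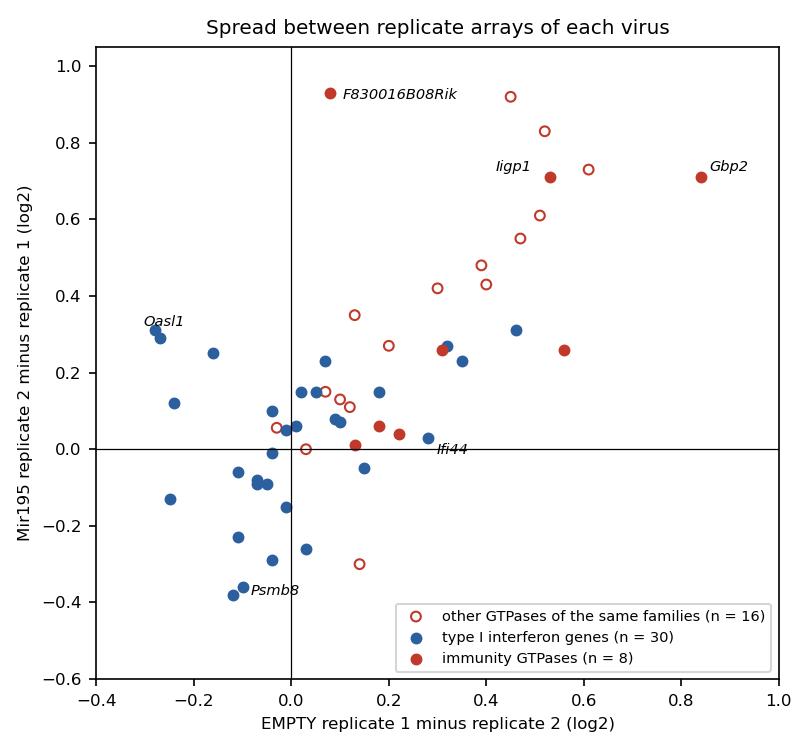
EMPTY replicate 1 minus replicate 2 (x axis, log2) against Mir195 replicate 2 minus replicate 1 (y axis, log2) for the 8 GTPases (filled red), 16 other GTPases of the same families (open red) and 30 type I interferon genes (blue). All filled red points lie above and to the right of 0, with Gbp2 at 0.84 and 0.71, while the blue points lie on all sides of 0.

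RefSeq promoter windows (GRCm38.p6), from 250 bases before to 50 after the start of a gene, were at hand for 28 of the 40 genes, in 32 windows. They were searched on both strands for an ISRE core, GAAANNGAAA or TTTCNNTTTC on the other strand, and for the GAS letters TTCNNNGAA, which read the same on both strands. The ISRE core stood in 15 of the 32 windows, 46.9%, against 3.44% of all 32851 windows, and the GAS letters in 8, 25%, against 8.3%. As the genes were chosen from known induction by interferon, nothing about these cells is read from these shares. No ISRE match overlapped a GAS match in the members, while 24 of all windows held such an overlap. All 5 GTPases with a window held an ISRE core, and Igtp and Irgm2 held the GAS letters as well. The last 120 bases before the start of these 5 are shown because these GTPases share the replicate order given above, with every match in capitals:
Igtp, chr11:58199436-58199555, plus strand: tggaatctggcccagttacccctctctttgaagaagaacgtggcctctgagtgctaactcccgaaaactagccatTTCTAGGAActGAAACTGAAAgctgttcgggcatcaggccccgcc
Irgm2, chr11:58214857-58214976, plus strand: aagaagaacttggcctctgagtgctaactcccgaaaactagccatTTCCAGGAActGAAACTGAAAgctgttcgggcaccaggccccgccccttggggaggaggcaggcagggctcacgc
Irgm1, chr11:48871421-48871540, minus strand: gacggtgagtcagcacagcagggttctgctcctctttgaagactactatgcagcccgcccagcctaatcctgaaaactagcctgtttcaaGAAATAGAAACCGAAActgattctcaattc
Gbp2, chr3:142620543-142620662, plus strand: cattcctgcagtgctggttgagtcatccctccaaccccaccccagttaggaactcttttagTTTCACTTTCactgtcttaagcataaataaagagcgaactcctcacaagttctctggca
Gbp3, chr3:142559924-142560043, plus strand: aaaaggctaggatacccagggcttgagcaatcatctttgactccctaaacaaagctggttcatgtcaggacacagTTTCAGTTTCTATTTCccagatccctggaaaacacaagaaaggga

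Igtp and Irgm2 are adjacent coding genes, and from 20 bases before the GAS match to 20 after the ISRE match their promoters were the same at 59 of 61 positions. In both, the GAS letters stand just upstream of the ISRE core. A match of letters is a description of the window and not a bound site.

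The type I interferon genes were ordered by what they do. The Oas proteins sense double-stranded RNA and make a small messenger molecule, and the related Oasl1 lacks that activity. Oasl1 read 3.10 and 3.37 with EMPTY and 3.82 and 4.11 with Mir195. It was higher with Mir195 by 0.73 ± 0.17, the widest difference among the type I interferon genes, or 1.66-fold. Oas2 read 4.59 and 4.75 with EMPTY and 5.01 and 5.26 with Mir195, a difference of 0.46 ± 0.15. Oas3 read 1.02 and 0.84 with EMPTY and 1.06 and 1.21 with Mir195. It lay on the same side by 0.20 ± 0.14, narrowly without overlap. Oasl2, adjacent to Oasl1, read 4.55 and 4.46 with EMPTY and 4.65 and 4.73 with Mir195, a difference of 0.18 ± 0.12. Oas1a read 5.67 and 5.92 with EMPTY and 6.02 and 5.89 with Mir195, which overlapped, at 0.16 ± 0.14. All 5 of these genes thus had the higher mean with Mir195. In 4 of them the arrays did not overlap, where 23.3% of all compared genes were higher in this way, and the genes were chosen with this contrast in view. In none of the 12 alternatives, scaling by the median included, did the sign of any of the 5 turn.

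Mx proteins are dynamin-like GTPases that block viruses in the nucleus or the cytoplasm, and whether the cells here make working Mx protein was not tested. Mx1 read 2.78 and 3.06 with EMPTY and 3.18 and 3.49 with Mir195, a difference of 0.41 ± 0.18. Mx2 read 1.97 and 2.21 with EMPTY and 2.26 and 2.38 with Mir195, a difference of 0.23 ± 0.14. In both, EMPTY replicate 1 was the lowest and Mir195 replicate 2 the highest array, and the replicates of Mx1 lay 0.28 and 0.31 apart. Ifi44, an interferon-induced antiviral protein, read 1.86 and 1.58 with EMPTY and 2.19 and 2.22 with Mir195, without overlap, at 0.48 ± 0.15. Mx1, Mx2 and Ifi44 kept their sign under all 12 alternatives, although leaving out an array cannot turn the sign of a gene without overlap.

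The factors that carry the type I signal lay on the same side by small amounts. Irf7, the factor that amplifies interferon alpha production, read 3.25 and 3.26 with EMPTY and 3.42 and 3.47 with Mir195, a difference of 0.19 ± 0.11. Stat2 read 3.65 and 3.69 with EMPTY and 3.78 and 3.77 with Mir195, a difference of 0.11 ± 0.11. Irf9, its DNA-binding partner, read 3.53 and 3.57 with EMPTY and 3.61 and 3.71 with Mir195, a difference of 0.11 ± 0.12. None of the 3 overlapped, and each stayed above 0 under all 12 alternatives, although Stat2 came down to 0.006 and Irf9 to 0.012 at the least. Irf1, a factor of the interferon gamma response, read 4.30, 4.25, 4.25 and 4.40 with overlap, and its difference of 0.051 ± 0.12 turned under scaling by the median, without Mir195 replicate 2 and in the mean of its probes. The dimmer Irf1 probe read -6.28, -4.58, -6.22 and -5.77, lower by a mean of 0.56 with an SE of 0.58.

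The antigen-processing members lay on the other side. Psmb8 and Psmb9 are the catalytic subunits that interferon gamma brings into the immunoproteasome, and Tap1 carries its peptides into the endoplasmic reticulum. Psmb8 read 4.86 and 4.96 with EMPTY and 4.76 and 4.40 with Mir195, a difference of -0.33 ± 0.17. Psmb9 read 5.14 and 5.18 with EMPTY and 5.02 and 4.73 with Mir195, a difference of -0.29 ± 0.15. Tap1, which lies between them in the genome, read 2.44 and 2.29 with EMPTY and 2.32 and 2.27 with Mir195, with overlap and a difference of -0.072 ± 0.13. Psmb8 and Psmb9 stayed below 0 under all 12 alternatives, Tap1 turned without EMPTY replicate 1, and most of the distance in Psmb8 and Psmb9 was on Mir195 replicate 2.

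Of the remaining effectors, Rtp4 and Xaf1 were lower with Mir195 without overlap and the others overlapped by their brighter probes. Isg15, the ubiquitin-like modifier, read 6.70 and 6.82 with EMPTY and 6.74 and 6.36 with Mir195, which overlapped, at -0.20 ± 0.17. Its dimmer probe, at 3.09, 3.16, 3.01 and 2.63, did not overlap, at -0.30 ± 0.17. Usp18, which removes Isg15 from proteins and blocks Ifnar2, read 4.42, 4.53, 4.47 and 4.41, at -0.037 ± 0.12. Rsad2 (viperin) read 2.44, 2.49, 2.48 and 2.39, at -0.027 ± 0.12. By their brighter probes these 3 genes, central to the type I response, differed between the means of the viruses by less than or about as much as their single replicates did. The Ifit genes, which bind viral RNA lacking the host cap, followed the replicate order of the GTPases instead. Ifit1 read 0.69, 0.34, 0.30 and 0.53, Ifit2, adjacent to Ifit3, 0.92, 0.46, 0.64 and 0.95, and Ifit3 2.62, 2.30, 2.23 and 2.50. Their differences were -0.094 ± 0.18, 0.10 ± 0.21 and -0.09 ± 0.18, and each turned sign under 2 of the 4 ways to leave out an array.

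Rtp4, a negative regulator of the response, read 5.68 and 5.69 with EMPTY and 5.65 and 5.50 with Mir195, lower without overlap at -0.12 ± 0.12. Xaf1, a proapoptotic factor, read 3.51 and 3.48 with EMPTY and 3.47 and 3.21 with Mir195 at -0.15 ± 0.14, but its dimmer probe read -0.75, -0.46, -0.41 and -0.53 at 0.14 ± 0.15. Ifi35 read 3.27, 3.38, 3.30 and 3.07, at -0.14 ± 0.14. In all 3 the lowest array of the brighter probe was Mir195 replicate 2. Eif2ak2 (PKR), the kinase that halts translation, read 1.86, 1.93, 1.99 and 1.90, at 0.05 ± 0.12. The ADP-ribosyltransferase family members Parp9 and Parp14 read 3.01, 2.94, 2.94 and 3.17, and 3.73, 3.71, 3.66 and 3.81, at 0.083 ± 0.14 and 0.011 ± 0.12. The signs of Eif2ak2, Parp9 and Parp14 turned under scaling by the median.

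The RNA sensors had the smallest median size of difference of any role, 0.022. Ddx58 (RIG-I) read 3.67, 3.57, 3.56 and 3.63, at -0.022 ± 0.12. Dhx58 (LGP2) read 2.31, 2.38, 2.37 and 2.29, at -0.017 ± 0.12. Ifih1 (MDA5) read 2.49 and 2.48 with EMPTY and 2.41 and 2.47 with Mir195, which did not overlap but differed by only -0.04 ± 0.12, and its dimmer probe gave 0.033 ± 0.29 from readings of -3.31, -3.65, -3.81 and -3.08. Of the 7 members with 2 compared probes, Irgm1, Ifih1, Irf1 and Xaf1 had probes of opposite sign, and Isg15, Oas1a and Ddx58 of the same sign.

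Of the 23 type I interferon genes with a promoter window, 10 held an ISRE core and 6 the GAS letters. The stretches below are of genes that stood on the higher side, on the lower side or on neither, again the last 120 bases before the start with every match in capitals:
Oas3, chr5:120777660-120777779, minus strand: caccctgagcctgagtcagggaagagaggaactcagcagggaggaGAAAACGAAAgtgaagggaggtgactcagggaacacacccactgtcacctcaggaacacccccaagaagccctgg
Oas1a, chr5:120907526-120907645, minus strand: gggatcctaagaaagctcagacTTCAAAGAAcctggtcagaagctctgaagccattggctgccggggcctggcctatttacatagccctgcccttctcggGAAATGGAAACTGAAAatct
Isg15, chr4:156200819-156200938, minus strand: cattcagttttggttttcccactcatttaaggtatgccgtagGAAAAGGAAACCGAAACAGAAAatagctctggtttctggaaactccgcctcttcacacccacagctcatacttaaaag
Ifit1, chr19:34640769-34640888, plus strand: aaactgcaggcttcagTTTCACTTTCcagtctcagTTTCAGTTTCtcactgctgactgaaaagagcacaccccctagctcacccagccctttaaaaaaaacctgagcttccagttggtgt
Psmb8, chr17:34198075-34198194, plus strand: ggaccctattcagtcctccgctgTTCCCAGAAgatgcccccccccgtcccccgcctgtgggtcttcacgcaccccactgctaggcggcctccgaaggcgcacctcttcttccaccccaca

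Isg15 and Ifit1 held 3 overlapping and 2 separate ISRE cores, and Oas3 held 1. Ifit1 and the brighter Isg15 probe did not separate the viruses, the dimmer Isg15 probe did, and Oas3 did so narrowly. Whether the number of matches goes with the differences was not tested. The windows of Oasl1, Ifi44 and Irf7 held neither set of letters. On the higher side, F830016B08Rik, Oas2, Mx1 and Mx2 had no window to search, and of the rest the ISRE core was found in Oas3 and Stat2. Of the type I interferon genes on the lower side, Rtp4 had no window, Psmb8, Psmb9 and Xaf1 held none in theirs, and Ifih1 held it after the start. Psmb8 held the GAS letters alone.

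Set side by side, the median difference between viruses was -0.078 over the 8 GTPases and 0.03 over the 30 type I interferon genes, beside 0.011 over all compared genes. The GTPase median minus the type I median was -0.11, and without F830016B08Rik, left out after its values were seen, -0.13. Without EMPTY replicate 1 this turned to 0.033. By mean, 2 GTPases were higher and 6 lower with Mir195, and 16 type I interferon genes were higher and 14 lower.

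**Figure D4:**
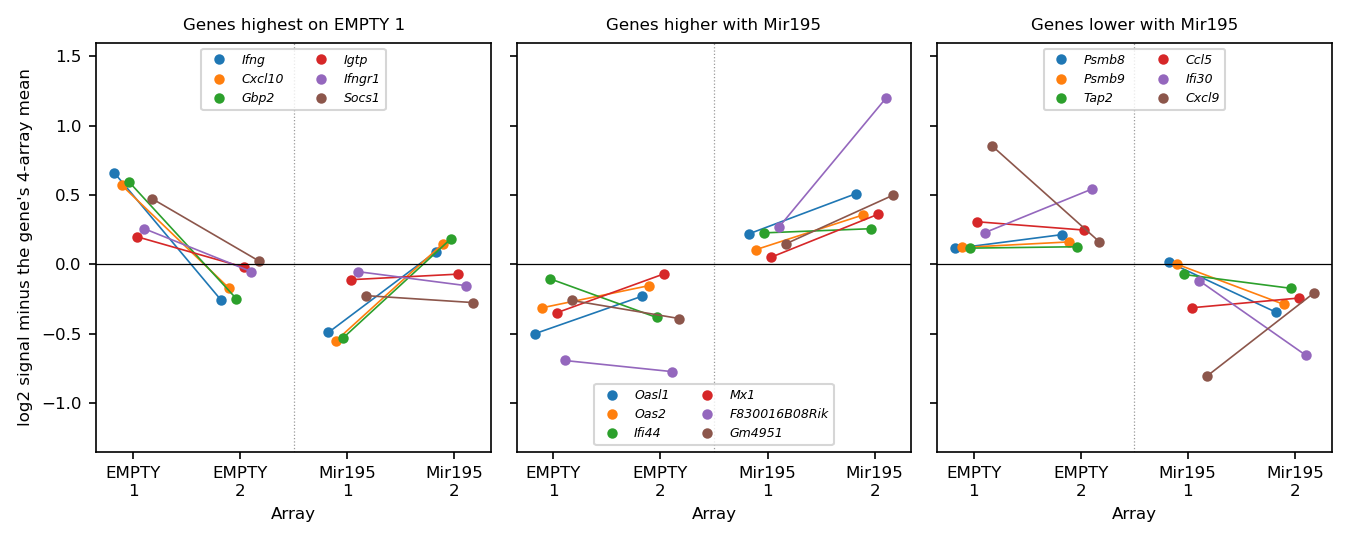
Log2 signal on each array (x axis) minus the mean of the gene over the 4 arrays (y axis), with lines joining the replicates of a virus, for genes highest on EMPTY 1 (left), higher with Mir195 (middle) and lower with Mir195 (right), chosen after their values were seen. Ifng, Cxcl10 and Gbp2 trace the same V shapes on the left, F830016B08Rik and Oasl1 step up in the middle, and Ccl5, Ifi30 and Cxcl9 step down on the right.

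The other genes of the interferon pathway give the setting. Of 155 listed genes, 138 had a compared probe of their own, 179 probes in all, and 0 passed an adjusted p of 0.05 by limma, with 3 higher and 7 lower at an unadjusted p under 0.05 and a lowest adjusted p of 0.523. Among the ligands, 10 of 12 had the lower mean with Mir195, 6 of them without overlap (14.3% of all compared genes), but most were dim, and with the normexp background correction 10 of the 12 had the higher mean instead. The dim ligands include Ifnb1, the first interferon made in many cells, at -4.78, -4.87, -5.33 and -4.84, and Ifnk, an epithelial interferon, at -5.42, -5.53, -5.45 and -4.51. The receptor chains of type I interferon barely differed, with Ifnar1 at 2.28, 2.54, 2.43 and 2.50 and Ifnar2 at 3.53, 3.70, 3.68 and 3.61. Those of interferon gamma were lower with Mir195 without overlap, Ifngr1 at 3.49 and 3.18 against 3.18 and 3.08 and Ifngr2 at 1.14 and 1.11 against 0.93 and 0.86. Their differences, -0.21 ± 0.16 and -0.23 ± 0.12, did not pass the test. In Ifngr1, EMPTY replicate 2 and Mir195 replicate 1 were equal at the digits shown. The kinases Jak1 and Tyk2 differed by -0.10 ± 0.12 and -0.036 ± 0.16.

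Socs1, the inhibitor of Jak kinases that interferon gamma induces, read 1.96 and 1.51 with EMPTY and 1.26 and 1.21 with Mir195, lower without overlap at -0.50 ± 0.18 and an adjusted p of 0.578 by limma. Nlrc5, the activator of MHC class I genes, differed by 0.008 ± 0.12 and B2m, the class I light chain, by -0.07 ± 0.12. Of 13 further antigen-processing genes, 10 had the lower mean with Mir195 and 6 of these did not overlap, where 14.3% of all compared genes were lower without overlap. Their median of -0.085 stayed below 0 under each scaling.

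The widest differences among these genes reached -1.02 on the lower side, where the members reached -0.34, and 0.65 on the higher side, where they reached 1.46. Cxcl9, a chemokine induced by interferon gamma, read -3.14 and -3.83 with EMPTY and -4.80 and -4.20 with Mir195, at -1.02 ± 0.32, which shrank to -0.36 with the normexp background correction. Ifi30, the lysosomal thiol reductase of class II antigen processing, read 0.066 and 0.38 with EMPTY and -0.28 and -0.82 with Mir195, at -0.78 ± 0.23. Ccl5, a chemokine of T and NK cells, read 6.15 and 6.09 with EMPTY and 5.53 and 5.60 with Mir195, at -0.56 ± 0.12. The adjusted p by limma were 0.532, 0.528 and 0.523, and in all 3 both Mir195 arrays lay below both EMPTY arrays. On the higher side stood Gm4951, listed in RefSeq also as Ifgga2 and 1 coding gene away from F830016B08Rik, which read 0.94 and 0.81 with EMPTY and 1.35 and 1.70 with Mir195, at 0.65 ± 0.17. Oas1g read -4.83 and -4.80 with EMPTY and -4.12 and -4.50 with Mir195, at 0.50 ± 0.17. Gm12185, a further IRG gene, read -4.34, -4.85, -4.54 and -3.93 with overlap, at 0.36 ± 0.28, and Ifnk differed by 0.49 ± 0.33.

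Markers of cells that make or answer interferon were present with either virus. Of 8 plasmacytoid dendritic cell markers, 8 were well above background on all 4 arrays, with summed signals of 326 and 368 with EMPTY and 359 and 337 with Mir195. This sum includes Bst2, itself listed among the interferon-induced genes, at 6.79, 6.94, 6.90 and 6.63. Of 12 macrophage and monocyte markers, 11 were, with sums of 54.7 and 51.2 with EMPTY and 54.9 and 57.6 with Mir195. Of 8 dendritic cell markers, 7 were, with sums of 103 and 86.1 with EMPTY and 67.6 and 76.6 with Mir195, and Xcr1 was so on none. The dendritic sum was lower with Mir195 without overlap, and the macrophage and monocyte sum was higher without overlap, by a narrow margin. The dendritic sum includes the class II gene H2-Ab1, itself induced by interferon gamma, at 5.03, 4.51, 3.52 and 3.90. H2-Ab1, H2-Aa and Cd74, the class II genes of the list, had differences of -1.06, -0.94 and -0.45. Itgax had one of -0.10. Flt3, Zbtb46, Clec9a and Xcr1 had the higher mean with Mir195, and the median difference over the 8 markers was 0.028. The lower sum is thus not a trait of the list as a whole. For the OP9 stroma, 9 of 14 markers were well above background on all 4 arrays and Pdgfra, Postn, Dcn and Lum on none, with sums of 25.1 and 25.6 with EMPTY and 21.4 and 29.4 with Mir195. Flt3 and Il7r, receptors of lymphoid progenitors, were well above background on all 4 arrays. The part of any of these cells in the differences above was not tested.

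**Figure D5:**
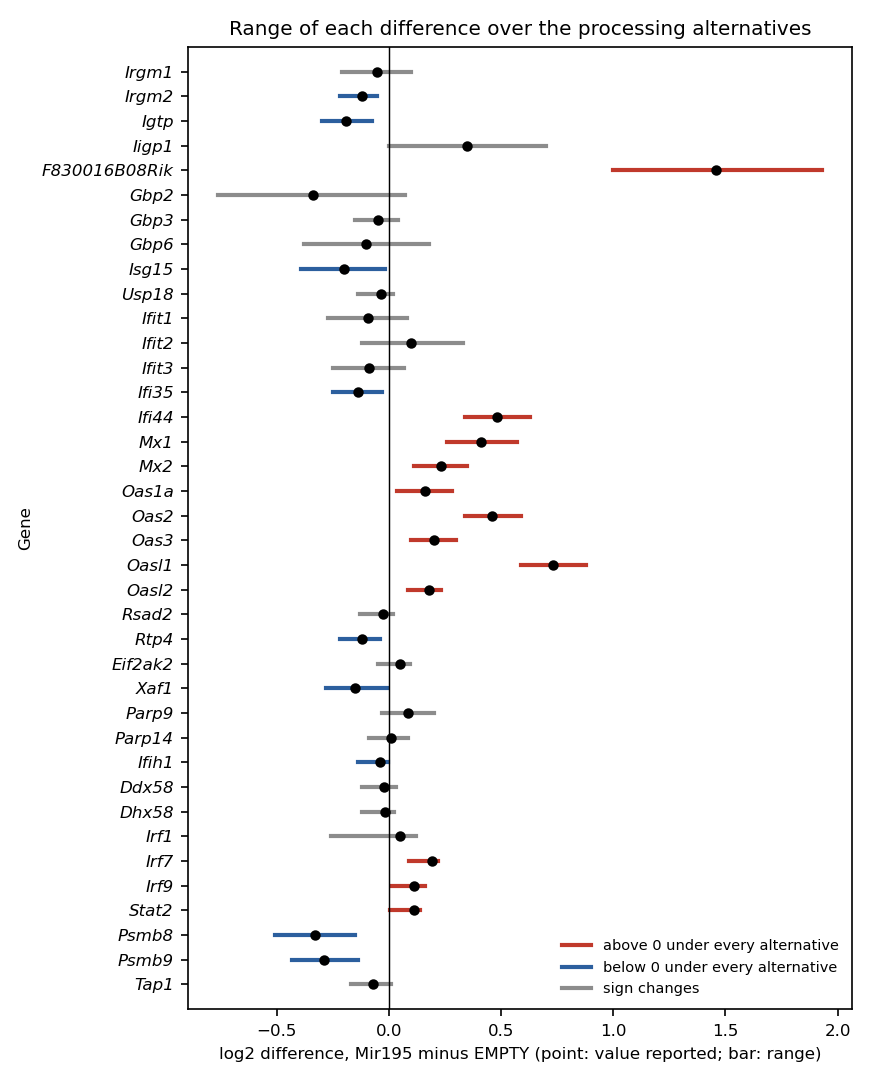
Difference between Mir195 and EMPTY (x axis, log2) for each of the 38 member genes (y axis), as reported (black points) and as the range over 12 alternatives of processing (bars). Red bars stay above 0 (12 genes), blue bars stay below (9 genes) and grey bars cross 0, which includes 5 of the 8 GTPases.

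Over the 12 alternatives, which rescaled the arrays, changed the filter or left out an array, 21 of the 38 genes kept their sign, 12 higher and 9 lower with Mir195. This was so for 18 of 30 type I interferon genes and for 3 of 8 GTPases, namely F830016B08Rik, Igtp and Irgm2. An array left out was the setting that turned each of the other 5 GTPases, in Irgm1 beside the mean of its probes. In genes without overlap, leaving out an array could not turn the sign. The looser and stricter filters left the differences of the members as they were, so these settings are no test of a sign.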

How the data were processed

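The authors deposited, for each array, the intensity of every spot from Agilent Feature Extraction 11.5.1.1 after subtraction of local background and a spatial trend, with surrogate values for dim spots. They also deposited log2 values set relative to each array's 75th percentile, which correlated with those computed here at r = 0.998 on each array. Here, log2 intensity minus the array's 75th percentile was used. Outlier spots (21 to 65 per array) were left out, and a probe was compared where both arrays of at least 1 virus had it well above background. The linear model of limma (version 3.58.1, under R 4.3.3, files read with data.table, version 1.17.8) was used, two-sided, with Benjamini-Hochberg adjustment over all 23721 probes. The fit was tested on simulated data. An exact permutation test of 2 against 2 arrays cannot go below p = 0.333, and precision is limited by the number of arrays. A gene stands for its brightest compared probe. Values in sentences of 4 are EMPTY replicates 1 and 2, then Mir195 replicates 1 and 2.

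The members and lists were chosen with earlier results of these data known. The genes named are every member, pathway genes fixed by name, the 4 widest differences in each direction among the other pathway genes well above background on all 4 arrays, and Ebf1, and any others were chosen after their values were seen. Some values under this rule are not reported here. Gene names are those of the array. By accession, 44 of the 48 member probes carried the same symbol in the GRCm38.p6 annotation. The build of the array design is not given in the sources used here. Other pathway genes were found by name or accession, and a member's probe was not counted again. As alternatives, the background was corrected with normexp (offset 50), arrays were quantile-normalized or scaled by their median or over bright probes, and the authors' table was used. Others were looser and stricter filters, another variance model, a replicate block, the methods' t-test, the mean of a gene's probes and each array left out.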

Additional observations from a re-analysis of the deposited data

How the results depend on the processing

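No probe on the array passed the threshold as reported, and scaling by the median gave 3. Leaving out 1 array gave 0 to 881 probes, with 881 without Mir195 replicate 1, 3 without Mir195 replicate 2 and 0 without either EMPTY array, the lone array being assumed to vary like the others. Without Mir195 replicate 1, 1 member probe passed, that of F830016B08Rik (adjusted p = 0.00366 by limma), and 4 probes of other pathway genes did, against 0 under each other alternative. The replicate block gave 5 probes, none of them of a member. The labels do not say that equal replicate numbers mark a pair, and the deviations of equally numbered arrays had a correlation of -0.101. With the numbers crossed, an alternative added after the data were seen, 0 probes passed. The median of the type I interferon genes, 0.03, became 0.055 with quantile normalization, -0.069 with scaling by the median, -0.004 in the authors' table and 0.0039 with the mean of a gene's probes, and ranged from -0.011 to 0.066 with 1 array left out. That of the GTPases ranged from -0.20 to 0.086 with 1 array left out. Genes higher without overlap numbered 8 with scaling by the median and 13 to 17 with 1 array left out, against 11. Genes lower without overlap numbered 15 with scaling by the median and 12 to 15 with 1 array left out, against 7, so that scaling by the median turned the balance of the sides; an array left out makes overlap rarer by construction. The other pathway calls ranged from 0 to 4 with 1 array left out. Another variance model and the block leave a log2 difference as it is. For the other pathway genes, the mean of a gene's probes was not run, since calls were made per probe. The cause of the other changes was not tested.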

Other observations

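Ifi27 had no probe by gene name. The probe named Ifi27l1 carries an accession that RefSeq gives to Ifi27, and it read 3.67 and 3.86 with EMPTY and 3.63 and 3.36 with Mir195.

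Genes of MHC class II stood on the side of Cxcl9 and Ifi30. H2-Aa, an alpha chain of MHC class II, read 2.44 and 1.79 with EMPTY and 1.04 and 1.31 with Mir195, and Cd74, the invariant chain, 5.07 and 4.81 with EMPTY and 4.41 and 4.58 with Mir195. Ciita, the activator of class II genes, read -4.01 and -4.50 with EMPTY and -5.07 and -4.43 with Mir195, with overlap. H2-Aa, Cd74 and Ciita had EMPTY replicate 1 highest and Mir195 replicate 1 lowest, the order also seen in Ifng, Cxcl10 and Gbp2. These genes were picked after their values were seen.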
